A study of Mus musculus with 9 samples.

Results

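The optic fissure was compared with the temporal optic cup of the mouse embryo at E11.5, using the 6 arrays whose labels name these regions, of 9 arrays in the series. Each of 3 regions (fissure, central nasal cup, central temporal cup) was taken by laser microdissection and hybridised to 3 Affymetrix mouse genome arrays, lettered A, B and C and described as biological replicates. The fissure samples took in cup cells up to 5 cell diameters from the fissure edge. All 3 groups carry the same description apart from the region, with no treatment or allele named, and the strain, the genotype, the number of embryos per sample and their litters are not given in the sources used here.

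The optic cup forms when the optic vesicle folds inward, and its ventral side keeps an open groove, the optic fissure, through which mesenchyme and vessels enter the eye. The margins of the groove later meet, their basement membranes are removed and the epithelia join, and failure of this leaves a gap called coloboma. The cup is also patterned along the nasal-temporal axis, where the transcription factor Foxd1 marks the temporal side, and along the dorsal-ventral axis, where Vax factors mark the ventral side and T-box factors the dorsal side. A sample of fissure margin therefore differs in position from a sample of the temporal centre on both axes.

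Values are probe set intensities on the deposited linear scale, printed for arrays A, B and C in that order. A change is fissure minus temporal on the log2(intensity + 16) scale, with its standard error (SE) after the sign ±, and it understates the change of dim genes. Adjusted p-values are from limma with Benjamini-Hochberg adjustment over 12773 tested genes, and passing means an adjusted p below 0.05. Intensities of different genes come from different probes and are not set against each other. In samples of many cells, fewer cells of a type and less RNA per cell cannot be told apart.

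The promoters of 3 genes are shown first because these genes had the largest fall, the next largest fall and the largest rise: Cyp26a1, which encodes an enzyme that clears retinoic acid, Foxd1, and Cyp1b1, which encodes a cytochrome P450 that can make retinoic acid. The letters are the 250 bases before the annotated start in RefSeq assembly GRCm38.p6, read 5′ to 3′ on the gene's strand. Capitals mark the retinoid receptor half-site AGGTCA, its variant AGTTCA, the variant GGGTCA and the further variant GGTTCA on either strand.
Cyp26a1, chr19:37697558-37697807, plus strand: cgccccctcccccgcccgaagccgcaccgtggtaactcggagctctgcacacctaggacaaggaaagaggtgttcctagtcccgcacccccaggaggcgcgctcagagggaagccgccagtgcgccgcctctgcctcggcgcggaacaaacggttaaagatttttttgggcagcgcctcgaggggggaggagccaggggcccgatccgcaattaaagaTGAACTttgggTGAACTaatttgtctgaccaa
Foxd1, chr13:98353995-98354244, plus strand: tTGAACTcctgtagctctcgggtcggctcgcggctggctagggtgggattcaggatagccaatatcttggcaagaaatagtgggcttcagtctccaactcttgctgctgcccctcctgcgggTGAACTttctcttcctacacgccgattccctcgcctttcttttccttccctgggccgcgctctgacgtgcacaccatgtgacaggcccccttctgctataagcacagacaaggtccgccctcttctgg
Cyp1b1, chr17:79715062-79715311, minus strand: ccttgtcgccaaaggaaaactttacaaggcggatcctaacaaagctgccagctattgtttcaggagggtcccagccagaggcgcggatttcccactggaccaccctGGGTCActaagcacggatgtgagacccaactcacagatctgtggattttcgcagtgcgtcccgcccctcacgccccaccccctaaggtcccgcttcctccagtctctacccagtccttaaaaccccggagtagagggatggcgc
Cyp26a1 and Foxd1 each had 2 half-sites and Cyp1b1 had 1. A direct repeat of half-sites with a 5-base spacer, TGAACTttgggTGAACT, lay from base -32 to base -16 of Cyp26a1, counted back from the annotated start. Among 10338 tested genes with a promoter in the table, 37.6% held a half-site in this window and 7 held such a repeat. The share with a half-site was 42.9% among 352 genes higher in the fissure and 36% among 186 genes lower in it, and Cyp26a1 was the 1 gene of these with the repeat. A match of letters is a description and not a binding site.

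Every array had a trimmed mean of 150, and its median lay between 27.5 and 30.3. Pax6, Rax, Six3 and Lhx2, genes of the optic cup, exceeded the 40th percentile of each of the 9 arrays. Fissure B was unlike the other 2 fissure arrays, with a correlation of 0.971 with A and 0.964 with C over tested genes, against 0.987 between A and C, and it received the lowest weight, 0.332, when arrays were weighted. The added poly-A spike RNA read 114 ± 42.1 (SD, n = 3) in the fissure and 63.3 ± 19.9 (SD, n = 3) in the temporal cup (2-sided exact permutation test, p = 0.2). The ratio of 3-prime to 5-prime Gapdh signal was 9.34 ± 5.13 (SD, n = 3) and 6.19 ± 1.55 (SD, n = 3) (2-sided exact permutation test, p = 0.4). Both were higher in the fissure at each of the 3 letters, and 0.1 is the smallest p that 3 arrays against 3 can give. Their part in the results was not tested beyond the fits that hold them as covariates.

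Between the fissure and the temporal cup 685 of 12773 genes passed, which is 5.36%. Of these, 443 (3.47%) rose in the fissure and 242 (1.89%) fell, and 255 (2%) of the rises and 138 (1.08%) of the falls were at least 2-fold. Without regard to a test, the 3 fissure arrays lay above the 3 temporal arrays for 12.1% of tested genes and below them for 9.58%. The median change over all tested genes was 0.04. With every probe set tested by itself, 923 of 28910 passed (3.19%). At each letter, the within-letter difference had the direction of the call for all 685 genes, while 47.7% of all tested genes had 3 differences of 1 sign. The calls were made on these same arrays, so this is no independent support for them. With the letter as a block, 983 genes were higher (7.7%) and 558 lower (4.37%), and the 685 were among them. Centring each array on its median moved the median of all genes by 0.106 and the split of calls to 355 higher and 307 lower. Leaving out fissure A gave 372 calls and leaving out fissure C gave 403, while leaving out fissure B gave 1161. Without temporal A it was 450 and without temporal B 447. When the fit held the poly-A spike as covariate, 258 genes passed, of which 241 were among the 685. In the comparison of nasal with temporal cup, 6 genes passed (0.047%), with 3 higher in nasal (0.0235%) and 3 lower (0.0235%), 2 without temporal A or temporal B and 3 without nasal B or temporal C. Of the 173 named genes that passed, 111 passed whichever array was left out, and none changed sign in any alternative. In every alternative that tested them, of up to 24, 89 passed. The 60th percentile filter tested 150 of the 173. Among genes named here that passed whichever array was left out, the spike covariate ended the calls of Hey1, Dhrs3, Fgf9, Dab1, Adamts15, Cntn6, Itgb8, Dsp, Krt18, Mitf, Otx1, Mlana, Gpnmb, Slc6a15, Ccnd2, Gja3, Postn, Eya2 and Kit.

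**Figure D1:**
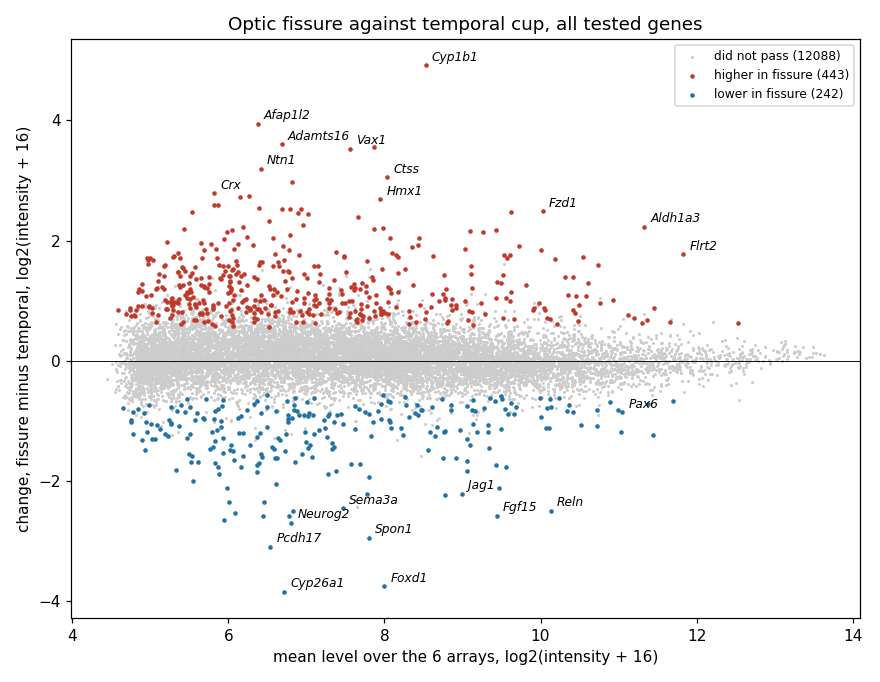
Change between fissure and temporal cup for each of 12773 tested genes (vertical axis, fissure minus temporal, log2(intensity + 16)) against its mean level over the 6 arrays (horizontal axis, log2(intensity + 16)). Red points mark the 443 genes with a rise and blue points the 242 genes with a fall. Cyp1b1 lies highest at 4.92 and Cyp26a1 lowest at -3.84.

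Most tested ventral patterning genes rose. Of 15 tested members of the ventral cup and fissure list, 11 (73.3%) were higher and 0 lower in the fissure. The shares over all tested genes were 3.47% and 1.89%. The list's median change was 1.76 against 0.04 for all genes. Cyp1b1 read 1976, 2246 and 1834 in the fissure and 60.4, 51.1 and 42.8 in the temporal cup. All 3 fissure arrays lay far above all 3 temporal arrays, a change of 4.92 ± 0.16 (adjusted p = 2.79e-08), and 2 of its 3 probe sets had this direction. Vax1, a ventral homeobox factor, read 733, 595 and 559 in the fissure and 55.8, 29.5 and 36.8 in the temporal cup. The fissure was higher on every array, by 3.53 ± 0.26 (adjusted p = 2.83e-05). Vax2, its homologue, read 928, 524 and 778 and 430.3, 300.1 and 346, again without overlap, and rose by the smaller 1.0 ± 0.22 (adjusted p = 0.0244). The call of Vax2 was lost without fissure A, fissure C, temporal B or temporal C (adjusted p from 0.0665 to 0.118).

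Netrin 1 (Ntn1), a secreted guidance and adhesion cue of the fissure margin, read 335, 114 and 359.6 in the fissure and 10.3, 13 and 13.2 in the temporal cup. Fissure array B was the lowest of its group and still lay above all temporal arrays, which were all below the 40th percentile, and the change was 3.20 ± 0.33 (adjusted p = 0.00021). Smoc1, a secreted matricellular modulator of BMP signalling, read 1248, 360.0 and 1063 and 89.3, 31.3 and 46.1. Fissure B was again the lowest fissure array, and the change was 3.57 ± 0.41 (adjusted p = 0.000376). Adamts16, a secreted metalloprotease, read 457, 145 and 588 in the fissure and a mean of 13.6 ± 3.35 (SD, n = 3) in the temporal cup, and rose by 3.60 ± 0.39 (adjusted p = 0.000275), in 1 of its 2 probe sets. The BMP receptor gene Bmpr1b rose by 1.76 ± 0.24 (adjusted p = 0.00129) and the zinc finger gene Zfp503 by 1.31 ± 0.20 (adjusted p = 0.00242). Its relative Zfp703 read 15.6, 24.2 and 25.4 and 28.1, 19.5 and 42.4, with overlapping arrays and an adjusted p of 0.589. Tenm3, a teneurin, rose by 0.76 ± 0.17 (adjusted p = 0.0247), a call lost without fissure A, fissure C, temporal A or temporal C (adjusted p from 0.0692 to 0.114). Pax2 and Ephb2 had no singly named probe set in the table used and are not analysed here.

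Some dorsal genes fell. Of 12 tested dorsal genes, 5 were lower (41.7%, against 1.89% of all tested genes), 0 were higher and 7 did not pass. The median was -0.79, and with the letter as a block 8 were lower. Tbx3, a T-box repressor, read 20.3, 13.8 and 37.2 in the fissure and 109, 120.2 and 118 in the temporal cup. Each fissure array lay below each temporal array, and the change was -1.77 ± 0.24 (adjusted p = 0.00126). Bambi, a pseudoreceptor that dampens BMP signalling, read 45.6, 38.6 and 63.2 and 160.5, 131 and 327, a change of -1.69 ± 0.33 (adjusted p = 0.011). Msx2, a homeobox target of BMP signalling, read 8.7, 2.6 and 3 and 21.5, 27 and 47.5, a change of -1.18 ± 0.21 (adjusted p = 0.00712) with every fissure array below the 40th percentile. Tbx2 fell by 1.45 ± 0.30 (adjusted p = 0.0152), a call lost without fissure A or temporal C (adjusted p from 0.0536 to 0.0551). Aldh1a1, the dorsal retinaldehyde dehydrogenase, fell by 1.18 ± 0.30 (adjusted p = 0.0405), and this call was lost when any of the 3 fissure arrays, any of the 3 temporal arrays or nasal C was left out, at adjusted p from 0.0585 to 0.156. Bmp4 read 84, 27.2 and 40.1 and 58.2, 42.7 and 100.5, with overlapping arrays (adjusted p = 0.707). Tbx5 was dim, but not in the temporal cup, where no gene of this list lay below the 40th percentile on every array. It did not pass, and its arrays overlapped. The lower count was 3 without fissure A or temporal C.

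The nasal-temporal axis was read from genes of both sides. Of 9 tested temporal identity genes 4 (44.4%) were lower and 0 higher in the fissure (median -0.39). For nasal identity genes 2 of 3 tested (66.7%) were higher and 0 lower (median 1.05). Over all tested genes 1.89% were lower and 3.47% higher. With the letter as a block, 3 members of the temporal list were higher beside the 4 lower. Foxd1 read 28.6, 102 and 48.1 in the fissure and 849.7, 914 and 1004 in the temporal cup. Every fissure array lay below every temporal array, with fissure B the highest of its group, and the change was -3.75 ± 0.29 (adjusted p = 3.28e-05). The Foxd1 intensity in the nasal cup was 4.5, 4.3 and 8.5, so the fissure lay between the other regions, above nasal by 1.68 ± 0.29 (adjusted p = 0.0046, and 0.0558 with the spike covariate). It was the 1 tested gene lower against temporal and higher against nasal with both passing.

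Hmx1, a nasal homeobox factor, read 722, 378 and 829.5 in the fissure and 105, 70.5 and 72.2 in the temporal cup. No fissure array came near a temporal array, and the change was 2.69 ± 0.33 (adjusted p = 0.000593). The nasal arrays read 249, 292 and 562, and nasal minus temporal did not pass for Hmx1 (1.89 ± 0.33, adjusted p = 0.135) but did once letters were blocked (adjusted p = 0.0426). Efna5, a ligand of EphA receptors, read 949.6, 1048 and 949 and 506, 478 and 415, higher in the fissure on all arrays by 1.05 ± 0.17 (adjusted p = 0.00316). Of its 2 probe sets 1 had this direction, and the call was lost when they were averaged. The receptor gene Epha5 read 224, 350.3 and 221 in the fissure and 876, 908 and 717 in the temporal cup, a change of -1.62 ± 0.23 (adjusted p = 0.00163). In the nasal cup it read 220.3, 133 and 217, and fissure minus nasal was 0.45 ± 0.23 (adjusted p = 0.34). Epha6 fell by 1.07 ± 0.16 (adjusted p = 0.0019) and lay below the 40th percentile on all fissure arrays. Epha7 fell by 0.84 ± 0.19 (adjusted p = 0.0272), lost without fissure C, temporal A, temporal B or temporal C (adjusted p from 0.0668 to 0.109). Over 18 tested Eph and ephrin genes 1 was higher (5.56%, against 3.47% of all tested genes) and 3 were lower (16.7%, against 1.89%). With the letter as a block the counts were 4 and 3. Nr2f1, a nuclear receptor, read 4243, 4079 and 4023 and 2499, 2141 and 3077 without overlap, a difference of 0.69 ± 0.21 that did not pass (adjusted p = 0.0909) but did with the block (adjusted p = 0.0299). For its relative Nr2f2 the arrays overlapped and the difference was 0.01 ± 0.39 (adjusted p = 0.994).

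Fissure against temporal and fissure against nasal share the fissure arrays, so their changes are given side by side, and the test of whether they differ is nasal against temporal. That test passed for 4 of the 685 genes. With the letter as a block, nasal against temporal passed for 17 genes (0.133%), of which 13 were among the 685: the 4 and, of genes named here, Hmx1, Neurog2, Tenm3 and Sall1 (adjusted p = 0.0426, 0.0137, 0.0219 and 0.018). For Cyp1b1 the changes were 4.92 against temporal and 2.19 against nasal (difference 2.73, adjusted p = 9.56e-06). For Foxd1 they were -3.75 and 1.68 (difference -5.43, adjusted p = 7.72e-06), for Epha5 -1.62 and 0.45 (difference -2.07, adjusted p = 0.00769) and for Efna5 1.05 and -0.35 (difference 1.40, adjusted p = 0.0111). The difference of Efna5 was no longer past the threshold without nasal A, nasal B or any 1 temporal array (adjusted p from 0.0525 to 0.0651), without the 3 arrays of letter B (adjusted p = 0.169) or with its probe sets averaged (0.84, adjusted p = 0.0822). That of Epha5 was no longer past it without temporal A or temporal B (adjusted p = 0.0597 and 0.0651). Here a difference is nasal minus temporal, which shows in the plot of 6 genes in 3 regions.

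**Figure D2:**
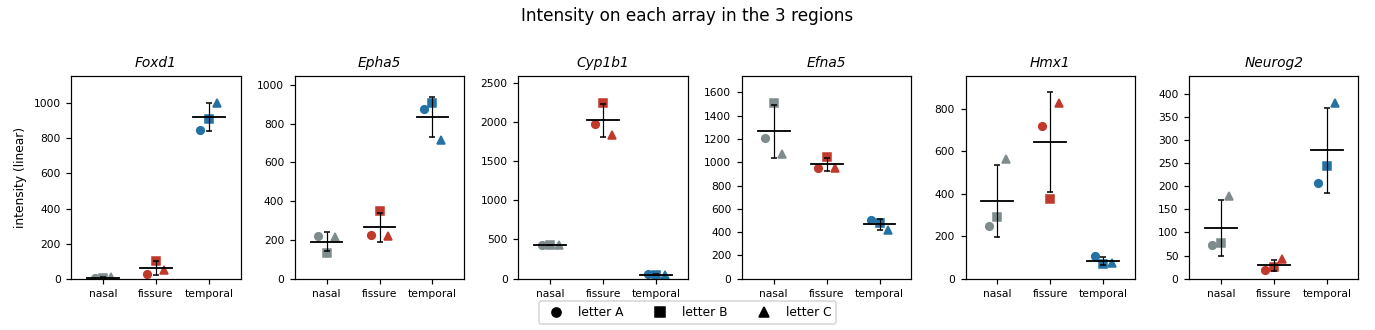
Intensity (linear, each axis from 0) of 6 genes on the 9 arrays, by region; points are arrays, marker shape gives the letter, the line is the mean and the bar the SD over 3 arrays. For Cyp1b1 the order is fissure, nasal, temporal, and for Foxd1 temporal, fissure, nasal, with no overlap of regions in either.

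Retinoic acid genes moved in both directions. Of 19 tested members, 5 (26.3%) were higher and 3 (15.8%) lower, against 3.47% and 1.89% of all tested genes, with a median of 0.51. On the synthesis side members differed in direction: Aldh1a1 was lower, as given among the dorsal genes, and Aldh1a2, another retinaldehyde dehydrogenase, read 83.2, 54.8 and 54.1 in the fissure and 43, 20.5 and 2.8 in the temporal cup, which passed with the letter block (adjusted p = 0.0499) but not without it (adjusted p = 0.0845). Aldh1a3, the ventral retinaldehyde dehydrogenase, read 6234, 4995 and 5520.5 in the fissure and 1364, 1045 and 1135 in the temporal cup. The lowest fissure array lay well above the highest temporal one, and the change was 2.23 ± 0.29 (adjusted p = 0.000878). Rdh10, which makes retinaldehyde from retinol, read 2070.5, 1733 and 2001 and 551, 508 and 521, higher by 1.84 ± 0.16 (adjusted p = 7.46e-05). Dhrs3, which turns retinaldehyde back to retinol, rose by 1.54 ± 0.27 (adjusted p = 0.00643). On the clearing side, Cyp26a1, whose promoter with the 5-spaced repeat is printed above, read 13.7, 9.9 and 11.8 in the fissure and 284, 328 and 589 in the temporal cup. All fissure arrays were below the 40th percentile and all temporal arrays were bright, a change of -3.84 ± 0.31 (adjusted p = 3.95e-05). The retinoid receptor gene Rxrg rose by 1.59 ± 0.24 (adjusted p = 0.00204). Crabp2, a retinoic acid binding protein, fell by 0.82 ± 0.19 (adjusted p = 0.0304), lost without fissure A, fissure C, temporal A or temporal B (adjusted p from 0.0844 to 0.14). The lower count of this list fell to 1 without fissure A, fissure C, temporal A or temporal B, which left Cyp26a1.

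**Figure D3:**
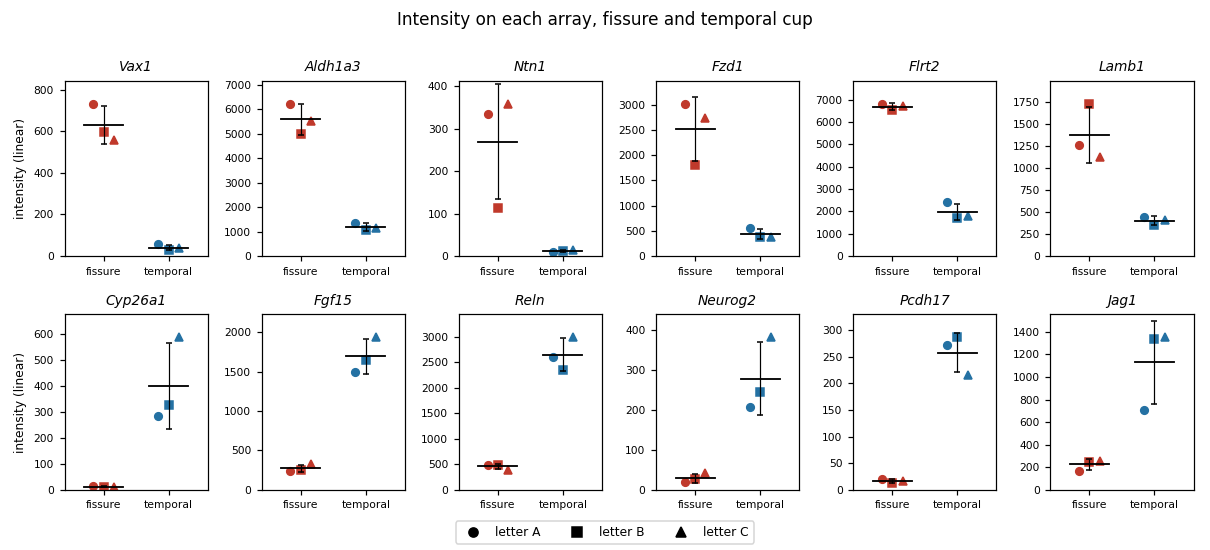
Intensity (linear, each axis from 0) of 12 genes on the 3 fissure and 3 temporal arrays; points are arrays, marker shape gives the letter, the line is the mean and the bar the SD over 3 arrays. Vax1, Aldh1a3, Ntn1, Fzd1, Flrt2 and Lamb1 are higher and the other 6 lower in the fissure, with no overlap between regions.

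Progenitor and neurogenic genes fell more often than they rose. Of 21 tested eye field and progenitor genes 5 (23.8%) were lower and 1 (4.76%) higher (median -0.18). Among 23 tested neurogenesis genes 4 (17.4%) were lower and 2 (8.7%) higher (median -0.16). Over all tested genes 1.89% were lower and 3.47% higher. Neurog2, a proneural factor of the first retinal neurons, read 19.1, 26.2 and 41.5 in the fissure and 207, 245 and 382 in the temporal cup. No arrays overlapped, and the change was -2.70 ± 0.32 (adjusted p = 0.000471). Neurod1, another proneural factor, changed by -2.34 ± 0.33 (adjusted p = 0.00149), and Insm1, a zinc finger factor of newborn neurons, by -1.62 ± 0.27 (adjusted p = 0.00437). Hes5, a Notch target that holds progenitors, read 6.9, 8.7 and 25.6 and 104, 181 and 114, a change of -2.34 ± 0.29 (adjusted p = 0.000655). Jag1, a Notch ligand, read 171, 244 and 259 and 703, 1336 and 1352, a change of -2.21 ± 0.27 (adjusted p = 0.00056). Hey1, another Notch target, fell by 0.96 ± 0.17 (adjusted p = 0.00725). The lower progenitor count was 3 without fissure A and 2 with the spike covariate.

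Pax6, the eye field regulator, read 1442, 1776 and 1476 in the fissure and 2820.2, 2798 and 2886 in the temporal cup. It was lower on every fissure array, by -0.86 ± 0.16 (adjusted p = 0.0093), a call lost without fissure A (adjusted p = 0.0541). Meis2, a homeobox cofactor, rose by 1.26 ± 0.19 (adjusted p = 0.00208) and Sox4 by 1.08 ± 0.20 (adjusted p = 0.00861), while its relative Sox11 fell by 0.71 ± 0.15 (adjusted p = 0.0144), lost without fissure A, temporal A or temporal C (adjusted p from 0.052 to 0.0803). Rax read 301, 207 and 326 and 295, 316 and 550.1 and Six3 read 300.5, 365 and 355 and 287, 230.1 and 377, with overlap in both and adjusted p of 0.474 and 0.679. Crx, a photoreceptor and pineal homeobox factor that is in no list, read 162, 121 and 118 and 8.6, 1.6 and 7, higher by 2.79 ± 0.19 (adjusted p = 1.91e-05).

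Among FGF genes 4 of 17 tested were lower (23.5%, against 1.89% of all tested genes) and 0 higher. The list median of 0.06 was -0.04 after median centring. Fgf15, a target and ligand of the embryonic neural retina, read 235, 251 and 327 in the fissure and 1497, 1650.3 and 1935 in the temporal cup. The fissure arrays all lay far below, by -2.58 ± 0.18 (adjusted p = 2.12e-05). Fgf9, a ligand of the neural retina, read 289, 417 and 277 and 813, 894 and 751, a change of -1.30 ± 0.22 (adjusted p = 0.00407). Fgf13 and the ERK target Etv5 fell by 0.78 ± 0.18 and 0.90 ± 0.23 (adjusted p = 0.0303 and 0.0479). Fgf13 lost its call without fissure A, fissure C, temporal A or temporal B (adjusted p from 0.0884 to 0.13), and Etv5 without fissure A, fissure B, nasal A, nasal B, temporal A, temporal B or temporal C (adjusted p from 0.056 to 0.137). The spike covariate left Fgf15 alone of the 4.

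Wnt pathway genes changed in both directions. Of 34 tested, 6 were higher (17.6%, against 3.47% of all tested genes), 2 lower (5.88%, against 1.89%) and 26 did not pass. The median of 0.05 was -0.06 after median centring and -0.03 after quantile normalization. Fzd1, a Wnt receptor, read 3022, 1799.6 and 2737 in the fissure and 549, 374 and 377 in the temporal cup. The lowest fissure array, B, was still above all temporal arrays, and the change was 2.49 ± 0.22 (adjusted p = 7.46e-05). Ror2, a receptor of non-canonical Wnt ligands, read 291, 258 and 242 and 25.5, 38.7 and 40.9, a change of 2.46 ± 0.32 (adjusted p = 0.000829). Rspo3, a secreted enhancer of Wnt signalling, read 113, 105 and 109 and 16.8, 5.4 and 24.8, a change of 2.03 ± 0.22 (adjusted p = 0.000303). Dkk1, a secreted Wnt antagonist, rose by 1.73 ± 0.25 (adjusted p = 0.00162). Fzd2 and the ligand gene Wnt7b rose by 0.94 ± 0.19 and 1.02 ± 0.23 (adjusted p = 0.0135 and 0.0252), and Sfrp2 and Wif1, both secreted antagonists, fell by 1.23 ± 0.28 and 1.13 ± 0.28 (adjusted p = 0.027 and 0.0355). Each of Fzd2, Wnt7b, Sfrp2 and Wif1 lost its call without at least 1 of fissure A, fissure B, fissure C, nasal A, temporal A, temporal B and temporal C, at adjusted p of up to 0.158 (Wif1 without fissure A). The lower count was 0 without fissure A, temporal B or temporal C and 1 without fissure C.

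Of 34 tested BMP and TGF-beta genes 4 (11.8%) were higher and 2 (5.88%) lower, against 3.47% and 1.89% of all tested genes. The median was -0.03, and 5 and 5 passed with the letter as a block. Besides Bmpr1b, Bambi and Msx2, the ligand gene Bmp7 rose by 1.13 ± 0.23 (adjusted p = 0.0124), the co-receptor gene Tgfbr3 by 0.78 ± 0.19 (adjusted p = 0.0321) and the inhibitor gene Id4 by 0.92 ± 0.21 (adjusted p = 0.0226). Each of Bmp7, Tgfbr3 and Id4 lost its call without at least 1 of fissure A, fissure B, fissure C, temporal A, temporal B and temporal C, at adjusted p of up to 0.121 (Tgfbr3 without temporal A). The higher count was 1, Bmpr1b, without fissure A or with the spike covariate, and 2 without fissure C, temporal A or temporal C. Of 13 tested Hedgehog pathway and stalk genes only Vax1 passed, a share of 7.69% higher. Ptch1, the Hedgehog receptor and target, read 1180.2, 952 and 1017 and 839, 870.1 and 611 without overlap, but its difference of 0.44 ± 0.18 did not pass (adjusted p = 0.218). Gli1, a Hedgehog target, read 85.6, 27.1 and 52.9 and 37.2, 25.4 and 27.4 with overlap (adjusted p = 0.39).

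Other axon guidance genes split evenly. Of 48 tested, 6 were higher and 4 lower (median -0.03), and 10 and 7 with the letter as a block. Sema3a, a secreted repulsive semaphorin, read 40.8, 67.2 and 76.7 in the fissure and 444, 411 and 348 in the temporal cup. All fissure arrays were lower, by -2.45 ± 0.21 (adjusted p = 7.37e-05). Sema3e read 20, 34 and 34.3 and 223, 288 and 255, a change of -2.59 ± 0.29 (adjusted p = 0.000357), and the semaphorin receptor gene Plxnc1 changed by -1.88 ± 0.21 (adjusted p = 0.00035). Sema3c, of the same secreted class, moved the other way, at 98.6, 67 and 98.1 and 35.7, 19.5 and 22.1, a change of 1.32 ± 0.21 (adjusted p = 0.00368). Slitrk1, a neuronal transmembrane protein, read 153, 187 and 159 and 8.9, 20.1 and 7.3, a change of 2.72 ± 0.19 (adjusted p = 2.12e-05). Nrp1, a receptor of class 3 semaphorins, rose by 1.02 ± 0.21 (adjusted p = 0.0141), and Sema3d and Sema6d by 0.96 ± 0.23 and 0.92 ± 0.23 (adjusted p = 0.034 and 0.0434), while Draxin, a netrin antagonist, fell by 0.90 ± 0.21 (adjusted p = 0.0314). Each of Nrp1, Sema3d, Sema6d and Draxin lost its call without at least 1 of fissure A, fissure B, fissure C, nasal A, nasal C, temporal A, temporal B and temporal C, at adjusted p of up to 0.191 (Sema6d without fissure A). The higher count was 3 without fissure A, temporal B or temporal C and 4 without fissure C or temporal A.

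In the reelin pathway and F-spondin list 3 of 6 tested genes (50%) were lower and 1 (16.7%) higher (median -0.51). Over all tested genes the shares were 1.89% and 3.47%. Reln, a secreted glycoprotein of neuronal positioning, read 491, 489 and 396 in the fissure and 2609.7, 2360.4 and 2992 in the temporal cup. The regions lay far apart, with a change of -2.49 ± 0.17 (adjusted p = 1.91e-05). Spon1, which encodes F-spondin, read 79, 54.2 and 61.1 and 585, 541 and 688, a change of -2.95 ± 0.19 (adjusted p = 1.91e-05). Dab1, the adaptor of reelin signalling, fell by 1.18 ± 0.20 (adjusted p = 0.00438). Apoe, a lipoprotein that binds reelin receptors and is also abundant in macrophages, rose by 1.69 ± 0.24 (adjusted p = 0.00158).

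Extracellular matrix genes rose more often than they fell, as did tested genes as a whole. Of 52 tested, 10 (19.2%) were higher and 1 (1.92%) lower, against 3.47% and 1.89% of all tested genes. The list's median was 0.29, and 15 and 4 passed with the letter as a block. Lamb1, a laminin chain of basement membranes, read 1262, 1737 and 1128 in the fissure and 448, 354 and 412 in the temporal cup. No arrays overlapped, and the change was 1.71 ± 0.19 (adjusted p = 0.000276). Nid1, which links laminin to collagen IV, read 486, 456 and 532 and 204, 85.9 and 125, a change of 1.79 ± 0.24 (adjusted p = 0.00109). The collagen genes Col1a2, Col3a1, Col5a2, Col9a1, Col9a2 and Col11a1 and the matricellular gene Sparc rose by 0.62 to 1.90, and the proteoglycan gene Dcn fell by 0.90 ± 0.21 (adjusted p = 0.0278). Each of Col1a2, Col3a1, Col5a2, Col9a1, Col9a2, Col11a1, Sparc and Dcn lost its call without at least 1 of fissure A, fissure C, nasal A, nasal B, nasal C, temporal A, temporal B and temporal C, at adjusted p of up to 0.186 (Col1a2 without fissure A). The higher count was 4 without fissure A or fissure C, 15 without fissure B, and 6, 3 and 5 without temporal A, B and C, and it was 3 with the spike covariate. Col1a2, Col3a1 and Dcn are also in the mesenchyme list described further on.

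Of 27 tested extracellular protease genes 5 were higher (18.5%, against 3.47% of all tested genes) and 0 lower (median 0.29). Besides Adamts16, Adamts5, an aggrecan-cutting protease, read 255, 164 and 207 in the fissure and 73.1, 32.5 and 47.7 in the temporal cup. Its arrays did not overlap, and the change was 1.77 ± 0.23 (adjusted p = 0.000919). Adamts15 rose by 1.40 ± 0.22 (adjusted p = 0.0031). Adamts12 and Plat, which encodes tissue plasminogen activator, rose by 0.68 ± 0.15 and 0.68 ± 0.16 (adjusted p = 0.0259 and 0.0305). Both Adamts12 and Plat lost their calls without at least 1 of fissure A, fissure C, temporal A, temporal B and temporal C, at adjusted p of up to 0.131 (Plat without fissure A). The higher count was 3 without fissure A, fissure C, temporal A or temporal C, and 2 with the spike covariate.

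Cell adhesion genes changed in both directions: 5 of 48 tested cadherin and adhesion genes were higher and 6 lower (median -0.13). Pcdh17, a protocadherin, read 19.5, 12.2 and 16.3 in the fissure and 272, 286 and 215 in the temporal cup. The temporal arrays were all bright and the fissure arrays all low, a change of -3.09 ± 0.18 (adjusted p = 5.71e-06). The classical cadherin gene Cdh8 changed by -1.70 ± 0.20 (adjusted p = 0.000418), the giant protocadherin gene Fat4 by -1.62 ± 0.25 (adjusted p = 0.0023) and the contactin gene Cntn3 by -1.47 ± 0.21 (adjusted p = 0.00164). Flrt2, a fibronectin and leucine-rich repeat transmembrane protein, read 6831, 6554 and 6703 and 2403, 1716 and 1802, higher on every array by 1.77 ± 0.18 (adjusted p = 0.00021). Its relative Flrt1 rose by 1.34 ± 0.23 (adjusted p = 0.00482), and the contactin genes Cntn1 and Cntn6 by 1.43 ± 0.28 and 1.14 ± 0.18 (adjusted p = 0.0121 and 0.00247). Cdh4 and Cdh13 fell by 0.74 ± 0.19 and 0.75 ± 0.18 (adjusted p = 0.0474 and 0.0357). Both Cdh4 and Cdh13 lost their calls without at least 1 of fissure A, fissure B, fissure C, nasal A, nasal B, temporal A, temporal B and temporal C, at adjusted p of up to 0.145 (Cdh4 without temporal A).

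Of 12 tested integrin genes 3 (25%) were higher and 2 (16.7%) lower, against 3.47% and 1.89% of all tested genes. The median was 0.25, and 6 and 2 passed with the letter as a block. Itga8, the subunit of a nephronectin receptor, read 222, 160.2 and 180.0 in the fissure and 39.6, 32.3 and 40.8 in the temporal cup. The fissure was higher on every array, by 1.92 ± 0.18 (adjusted p = 0.000123). Itgb8 read 239.6, 440.3 and 216 and 1102, 1048 and 715, lower by -1.67 ± 0.28 (adjusted p = 0.00434). Itga6, a laminin receptor subunit, and Itgav rose by 0.72 ± 0.16 and 0.85 ± 0.18 (adjusted p = 0.0239 and 0.0191), and Itga4 fell by 0.81 ± 0.18 (adjusted p = 0.0209). Each of Itga6, Itgav and Itga4 lost its call without at least 1 of fissure A, fissure C, temporal A, temporal B and temporal C, at adjusted p of up to 0.112 (Itga6 without fissure C). The higher count was 1 without fissure C, temporal A or temporal B and 2 without fissure A or temporal C.

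Of 18 tested epithelial junction genes 4 fell (22.2%, against 1.89% of all tested genes), 0 rose and 14 did not pass (median -0.17). With the letter as a block 1 was higher, F11r, and with the spike covariate 1 was lower. Cldn1, a tight junction claudin, read 11.6, 28.8 and 20.3 in the fissure and 214, 165 and 216 in the temporal cup. The arrays did not overlap, and the change was -2.58 ± 0.21 (adjusted p = 3.95e-05). Dsp, which encodes the desmosomal protein desmoplakin, changed by -1.68 ± 0.28 (adjusted p = 0.00409), and the simple keratin genes Krt8 and Krt18 by -1.61 ± 0.32 and -1.16 ± 0.21 (adjusted p = 0.013 and 0.00806). Krt8 lost its call without fissure A or temporal A (adjusted p from 0.059 to 0.0639), and also with the spike covariate. Dsp, Krt8 and Krt18 are also the 3 members of the surface ectoderm list that were lower.

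Pigment epithelium genes changed in both directions. Of 22 tested, 8 were lower (36.4%, against 1.89% of all tested genes), 3 higher (13.6%, against 3.47%) and 11 did not pass (median -0.44). The 3 higher genes encode transcription factors. Mitf, the regulator of pigment cell fate, read 2402, 2236 and 2575 in the fissure and 1308, 1068 and 1328 in the temporal cup, with no overlap and a change of 0.96 ± 0.16 (adjusted p = 0.00402). Tfec, of the same family, read 211, 160.2 and 198 and 25.5, 13.5 and 40, a change of 2.32 ± 0.23 (adjusted p = 0.000136). Otx1 read 1389, 927 and 1302 and 426, 345 and 540.4, a change of 1.43 ± 0.23 (adjusted p = 0.00347), while Otx2 read 1650.0, 1479 and 1306 and 2199, 1666 and 1805 and did not pass (adjusted p = 0.434). Among melanosome and pigment synthesis genes, Tyr, which encodes tyrosinase, read 458, 482 and 316 and 1153, 1021 and 739. It was lower on every fissure array, by -1.18 ± 0.23 (adjusted p = 0.0111). Oca2, a melanosomal channel gene, fell by 1.48 ± 0.21, Mlana by 1.58 ± 0.27 and Gpnmb by 1.26 ± 0.22 (adjusted p = 0.00152, 0.00543 and 0.00534). The amino acid transporter gene Slc6a15 fell by 1.40 ± 0.24 (adjusted p = 0.005). Ttr, which encodes the thyroid hormone carrier transthyretin, read 15.6, 5.3 and 6 and 378, 192 and 28.7, with temporal array C far below the other temporal arrays (adjusted p = 0.0348). Each of Tyr, Rab27a, Ttr and Gpr143 lost its call without at least 1 of fissure A, fissure B, fissure C, nasal B, temporal A and temporal B, at adjusted p of up to 0.155 (Gpr143 without fissure C). Tyrp1, Dct, Pmel, Slc45a2, Rab38, Mlph, Myo5a and Trpm1, also pigment cell genes, did not pass. The lower count was 4 without fissure C or temporal A and 5 without temporal B, and with the spike covariate 1 member was lower and 1 higher.

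**Figure D4:**
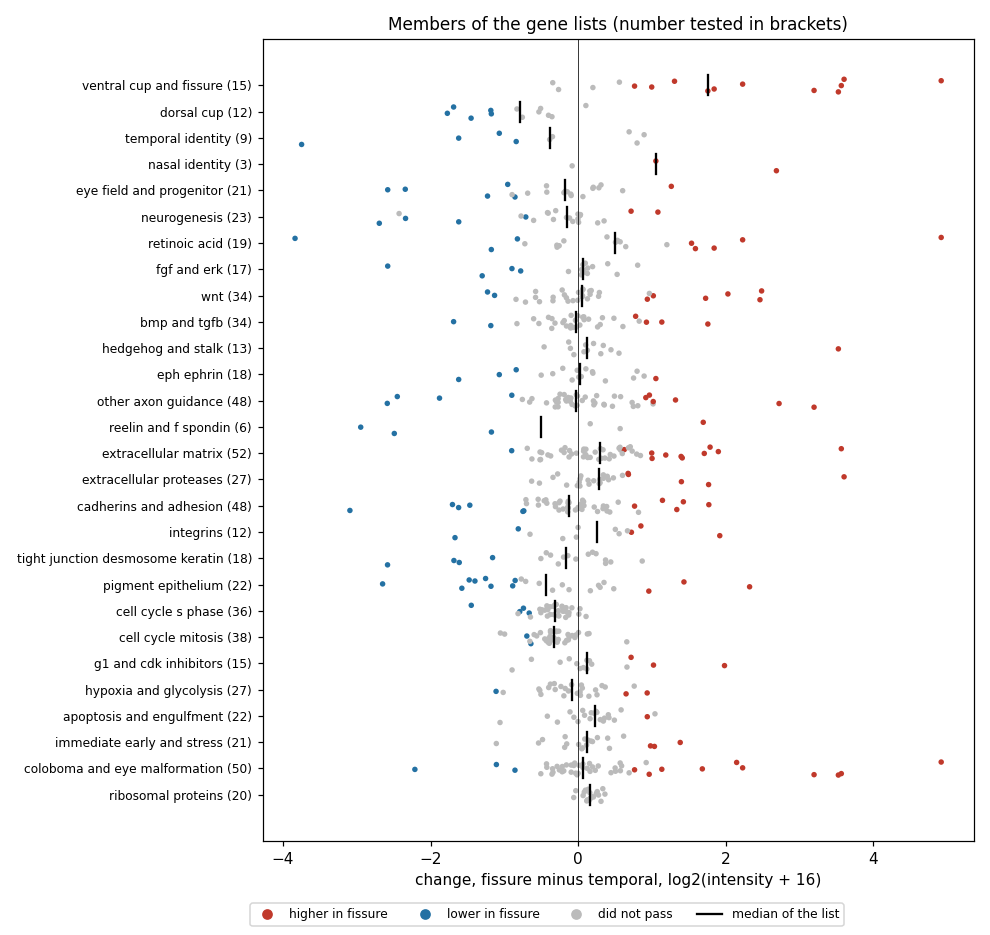
Change (fissure minus temporal, log2(intensity + 16)) of every tested member of 28 gene lists, with the number tested in brackets; red members were higher, blue lower, grey did not pass, and the black line is the list's median. The ventral list has its median at 1.76 and the dorsal list at -0.79. The S phase and mitosis lists have medians of -0.31 and -0.33, with 4 of 36 and 2 of 38 members passing as lower.

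Most cell cycle genes had small negative changes. The share that passed as lower was 11.1% for S phase and 5.26% for mitosis genes, against 1.89% of all tested genes. All fissure arrays lay below all temporal arrays for 16 of 36 S phase and 15 of 38 mitosis genes, against 9.58% of all tested genes. Of 36 tested S phase genes 33 had negative changes (median -0.31) and 4 passed as lower, and 9 did with the letter as a block. Of 38 tested mitosis genes 34 had negative changes (median -0.33) and 2 passed as lower, again 9 with the block. No S phase gene was higher, and 1 mitosis gene, Cdc25b, was higher with the block (0.66 ± 0.23, adjusted p = 0.0196, and 0.14 without it). The higher mitosis count was also 1 without fissure B, without the 3 arrays of letter B and with array weights. Ccne1, the cyclin that starts S phase, read 321, 491 and 339.6 in the fissure and 992, 1043 and 1142 in the temporal cup. All fissure arrays were lower, by -1.45 ± 0.23 (adjusted p = 0.00344). Cdc6, Cdc45, Rrm2, Cdk1 and Prc1 fell by 0.64 to 0.79 (adjusted p from 0.0128 to 0.029). Each of Cdc6, Cdc45, Rrm2, Cdk1 and Prc1 lost its call without at least 1 of fissure A, fissure C, temporal A, temporal B and temporal C, at adjusted p of up to 0.133 (Rrm2 without fissure A). The S phase count was 1 without fissure C, 2 without fissure A, temporal B or temporal C, and 1 with the spike covariate. The mitosis count was 0 without fissure A or fissure C, 7 without fissure B and 1 without any 1 temporal array. Of 15 tested G1 genes 3 were higher (20%, against 3.47% of all tested genes) and 0 lower. Cdkn2b, a CDK inhibitor, read 71.6, 51.3 and 52.4 in the fissure and 2.2, 3.1 and 2.8 in the temporal cup. Every temporal array was below the 40th percentile, and the change was 1.98 ± 0.15 (adjusted p = 3.46e-05). Ccnd2, a D cyclin, rose by 1.02 ± 0.19 (adjusted p = 0.00805), and the CDK inhibitor gene Cdkn1c by 0.72 ± 0.14 (adjusted p = 0.013), a call lost without fissure A, fissure C or temporal A (adjusted p from 0.0523 to 0.0748).

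Other process lists are set beside all tested genes, of which 3.47% were higher and 1.89% lower. The shares were 7.41% and 3.7% in the hypoxia and glycolysis list and 4.55% and 0% in the apoptosis and engulfment list. In the immediate-early and stress list they were 14.3% and 0%. Of 27 tested hypoxia and glycolysis genes 2 were higher and 1 lower: Hk2, a hexokinase, fell by 1.11 ± 0.19 (adjusted p = 0.00503), and Slc2a1 and Ddit4 rose by 0.65 ± 0.16 and 0.93 ± 0.22 (adjusted p = 0.041 and 0.0274). Both Slc2a1 and Ddit4 lost their calls without at least 1 of fissure A, fissure C, nasal B, temporal A, temporal B and temporal C, at adjusted p of up to 0.163 (Slc2a1 without temporal A). Of 22 tested apoptosis and engulfment genes 1 was higher, Gas6 at 0.94 ± 0.20 (adjusted p = 0.0164), lost without fissure A or fissure C (adjusted p from 0.0685 to 0.0751). Of 21 tested immediate-early and stress genes 3 were higher and 0 lower. Egr1, an immediate-early factor, read 202, 168 and 207 in the fissure and 64.7, 51 and 77.4 in the temporal cup. Its arrays did not overlap, and the change was 1.38 ± 0.18 (adjusted p = 0.00098). Ier3 and Hspa1a rose by 0.98 ± 0.22 and 1.03 ± 0.26 (adjusted p = 0.0215 and 0.0447). Both Ier3 and Hspa1a lost their calls without at least 1 of fissure A, fissure B, fissure C, nasal A, temporal A, temporal B and temporal C, at adjusted p of up to 0.191 (Hspa1a without fissure A). Of 20 tested ribosomal protein genes 0 passed with limma, and their median was 0.16.

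Of 50 tested coloboma and eye malformation genes 10 (20%) were higher and 3 (6%) lower, against 3.47% and 1.89% of all tested genes. Their median of 0.06 was -0.04 after median centring. Beyond members given above, Maf, a bZIP factor, read 1166, 1699.7 and 1046 in the fissure and 319, 312 and 209.5 in the temporal cup. The fissure was higher on all arrays, by 2.15 ± 0.24 (adjusted p = 0.000303), and Maf is also a lens marker. Sall1, a zinc finger repressor, read 176, 205 and 141 and 41, 56.8 and 32.3, a change of 1.68 ± 0.24 (adjusted p = 0.0016). The transcriptional coregulator gene Cited2 rose by 0.96 ± 0.20 and the fibrillin gene Fbn2 fell by 1.11 ± 0.25 (adjusted p = 0.0154 and 0.0247). Both Cited2 and Fbn2 lost their calls without at least 1 of fissure A, fissure C, temporal A, temporal B and temporal C, at adjusted p of up to 0.102 (Fbn2 without fissure A). Jag1 and Pax6 were the other members lower in the fissure.

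Several strongly changed genes were in no list. Afap1l2, an actin filament associated adaptor, read 288, 330.2 and 316 in the fissure and 8, 1.1 and 7.2 in the temporal cup. It was bright on every fissure array and below the 40th percentile on every temporal array, with a change of 3.95 ± 0.19 (adjusted p = 1.13e-06). Bmf, a BH3-only member of the Bcl2 family, read 565, 444 and 580.2 and 103, 97.6 and 104, a change of 2.20 ± 0.16 (adjusted p = 2.12e-05), though 1 of its 3 probe sets had this direction. Ezr, which encodes ezrin, a linker of membrane and actin, rose by 2.17 ± 0.17 (adjusted p = 3.88e-05), and Rgs13, a regulator of G protein signalling, by 2.19 ± 0.18 (adjusted p = 3.95e-05). Adgrl2, a latrophilin adhesion receptor, read 400.0, 389.9 and 389 in the fissure and 1400.2, 1429 and 1279 in the temporal cup, a change of -1.76 ± 0.15 (adjusted p = 4.84e-05). Zfhx4, a zinc finger homeobox factor, read 166, 164 and 236 and 1038, 966 and 805, a change of -2.23 ± 0.20 (adjusted p = 7.37e-05). Emb, Cltrn and Tafa2 changed by -2.11 ± 0.20, -2.05 ± 0.18 and -1.69 ± 0.16 (adjusted p = 0.00011, 7.46e-05 and 0.000111). The bicarbonate transporter gene Slc4a5 changed by -2.50 ± 0.23 (adjusted p = 8.05e-05) and the chloride channel gene Ano1 by -2.52 ± 0.31 (adjusted p = 0.000599). Myom2, a myomesin, rose by 2.74 ± 0.29 (adjusted p = 0.000241). None of these calls was lost under any alternative.

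Genes that mark cells other than the cup epithelium differed too. Of 20 tested macrophage and leukocyte genes 17 were higher (85%, against 3.47% of all tested genes) and 0 lower (median 1.78). The summed intensity of the list, over members with a probe set, was 3338 to 4192 on the fissure arrays and 608 to 855 on the temporal arrays. Ctss, a lysosomal protease of macrophages, read 667, 818 and 736 in the fissure and 94.8, 89.7 and 48.3 in the temporal cup. The regions did not overlap, and the change was 3.05 ± 0.26 (adjusted p = 5.32e-05). Mpeg1, a macrophage pore protein, changed by 2.97 ± 0.27 (adjusted p = 8.05e-05), and Csf1r, the receptor that macrophages need to survive, read 951, 873 and 859 and 367, 375 and 236, a change of 1.44 ± 0.22 (adjusted p = 0.0023). Laptm5, Ptprc, Cx3cr1, Tyrobp, the 3 C1q genes, Mrc1 and Lyz1 also passed, as did Fcgr3 and Fcrls outside the list. Itgam, Itgb2, Trem2 and Fcer1g were too dim to test. Their means were 7.13, 13.3, 13.9 and 49.9 in the fissure and 8.2, 7.37, 5.23 and 4.1 in the temporal cup. The temporal arrays held C1qa, C1qc, Aif1 and Mrc1 below the 40th percentile throughout. The part of these markers in the other results was not tested.

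Of 11 tested lens genes 5 were higher (45.5%, against 3.47% of all tested genes), 0 lower and 6 did not pass (median 1.29). With the letter as a block 7 were higher and 1 lower. The lowest change was -0.91, and for 1 member all fissure arrays lay below all temporal arrays. Their summed intensity was 2670 to 3664 on the fissure arrays and 602 to 1311 on the temporal arrays. Cryaa, a lens crystallin, read 186, 299.6 and 301 in the fissure and 107, 2.8 and 64.1 in the temporal cup. Its temporal arrays were spread widely below the fissure arrays, and the change was 2.26 ± 0.54 (adjusted p = 0.0334). Cryba1 rose by 2.05 ± 0.53 (adjusted p = 0.0473), Gja3, a lens connexin, by 1.47 ± 0.22 (adjusted p = 0.0023) and Sox1 by 1.29 ± 0.17 (adjusted p = 0.00101). Both Cryaa and Cryba1 lost their calls without at least 1 of fissure A, fissure B, fissure C, nasal A, nasal B, nasal C, temporal B and temporal C, at adjusted p of up to 0.136 (Cryba1 without fissure A). The count was 3 when any 1 fissure array was left out and 2 with the spike covariate. The lens genes Cryba2, Cryba4, Crygs, Mip, Bfsp1 and Foxe3 were too dim to test. Their means were 25, 20.5, 15.4, 6.57, 6.33 and 1.4 in the fissure and 15.3, 2.83, 5.07, 2.87, 7.1 and 1.77 in the temporal cup. The part of lens markers in the change of Maf was not tested.

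Of 20 tested periocular mesenchyme genes 6 (30%) were higher and 2 (10%) lower, against 3.47% and 1.89% of all tested genes. The median was 0.40, with sums of 7729 to 9581 in the fissure and 4774 to 6699 in the temporal cup. Eya2 read 76, 41.6 and 86.5 in the fissure and 11.6, 8.3 and 16 in the temporal cup. The temporal arrays were below the 40th percentile, and the change was 1.55 ± 0.22 (adjusted p = 0.00168). Postn, which encodes periostin, went the other way, at 83.6, 80.3 and 77 and 288, 158 and 342, a change of -1.47 ± 0.26 (adjusted p = 0.00676). Pdgfra, Lum and Lmx1b rose by 1.09 to 1.66. Each of Pdgfra, Lum and Lmx1b lost its call without at least 1 of fissure A, fissure C, temporal A, temporal B and temporal C, at adjusted p of up to 0.106 (Lum without fissure A). The higher count was 1 without fissure A or fissure C, 8 without fissure B, 3, 2 and 4 without temporal A, B and C, and 0 with the spike covariate. Foxc1, Foxc2, Twist1, Prrx1 and Alx1, factors that define this mesenchyme, did not pass, and the part of mesenchyme in the changes of the collagen genes was not tested.

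Of 13 tested surface ectoderm genes 3 were lower (23.1%, against 1.89% of all tested genes) and 0 higher. The list's sums were 619 to 688 in the fissure and 1037 to 1491 in the temporal cup. The basal keratin gene Krt14 and Trp63 were among the 8 members too dim to test, so they give no direction. The part of surface ectoderm in the lower junction genes was not tested. Of 18 tested endothelial genes and 9 erythroid genes 0 passed with limma, while 4 and 2 were higher with the letter as a block. Changes were positive for 16 of the 18 (median 0.36) and for 9 of the 9 (median 0.55). Pecam1 was dim in both regions. Endothelial sums were 881 to 1705 in the fissure and 827 to 1226 in the temporal cup, and erythroid sums 13535 to 18339 and 11722 to 13568. Of 7 tested melanocyte and neural crest genes, Kit, a receptor of pigment cells, fell by 1.22 ± 0.20 (adjusted p = 0.00394) and Ednrb rose by 1.01 ± 0.24 (adjusted p = 0.0319). Their sums overlapped, at 276 to 314 and 274 to 319. Of 6 tested forebrain and stalk genes Fezf2 rose by 1.05 ± 0.23 (adjusted p = 0.0219), with sums of 318 to 369 and 236 to 269 (fissure first). Both Ednrb and Fezf2 lost their calls without at least 1 of fissure A, fissure B, fissure C, nasal A, temporal A, temporal B and temporal C, at adjusted p of up to 0.112 (Ednrb without temporal B).

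**Figure D5:**
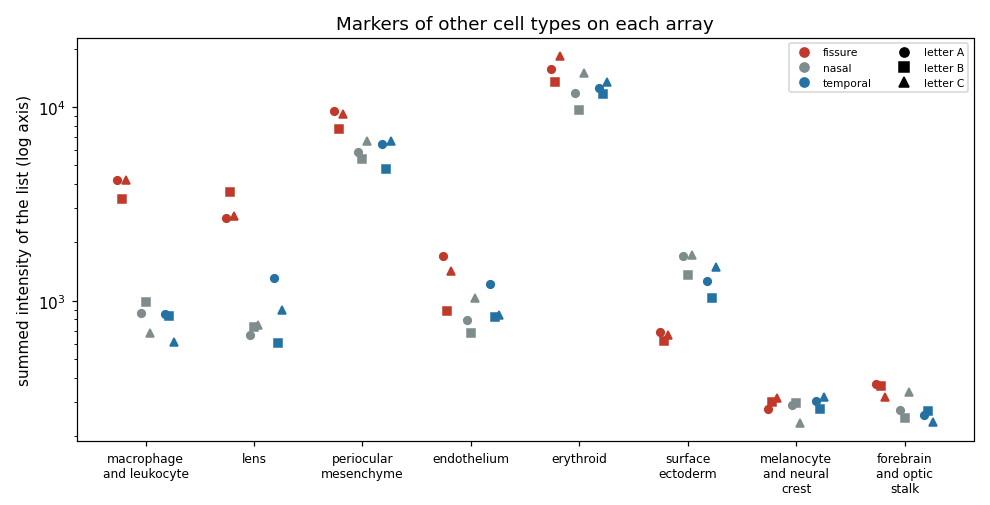
Summed intensity of the members with a probe set in 8 marker lists on each of the 9 arrays (log axis); colour gives the region and marker shape the letter. Macrophage and lens sums of the fissure arrays lie above all other arrays, surface ectoderm sums lie below them, and melanocyte sums overlap.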

How the data were processed

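RNA labelled with biotin by the standard Affymetrix protocol, per the labels, was hybridised to 1 array per sample. The table the authors deposited holds linear probe set intensities that were already scaled: the mean after trimming 2% from each end was 150 on all arrays. The software for probe summary and the scaling method are not given in the sources used here, and the table holds no detection calls. Of 45101 probe sets, 64 were controls, 34945 had 1 symbol in the platform table, 932 several and 9160 none. The table's symbols were checked against RefSeq, and 0 needed updating. The probe set with the highest mean stood for a gene, which gave 18193 genes.

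From these, log2(intensity + 16) was computed. Testing required an intensity over the 40th percentile on 3 or more of 9 arrays. A gene short of this, or of the percentile on all arrays of a region, is called dim. The model had 1 mean for each region over the 9 arrays (limma 3.58.1, R 4.3.3), so nasal arrays contribute to the spread. P-values reflect the spread of these samples, which may in part be technical, and the number of arrays limits precision. Means are given ± SD. Figures were drawn with matplotlib 3.10.9.

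The labels do not explain the letters, and the main fit has no term for them. Because of the data, they served as pairs in the within-letter differences and as a block in alternative fits only. Deviations from the region means correlated at 0.229, 0.485 and 0.387 between fissure and temporal arrays of letters A, B and C. Every pair of 1 letter was at 0.166 or more. Fissure A also correlated at 0.218 with temporal C and 0.184 with nasal C, so its partners of letter A did not stand out. The remaining pairs of different letters had negative correlations. Data were simulated for fissure against temporal with 200 of 12773 genes changed. The noise was drawn independently for each gene and array, without shared deviations of a letter or an outlying array. The fit recovered 12% of changes of 0.5, 62% of 1, 92% of 2 and 98% of 3 on the log2 scale. There were 7 false calls. How far these rates hold for the real arrays was not tested.

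The comparison, its alternatives and the 36 gene lists (892 genes, 827 with a probe set, 713 tested) were chosen with earlier results of these data known, so list counts are descriptions. The naming rule took the 15 largest rises and falls past the threshold whose regions did not overlap (12.1% of all tested genes lay above and 9.58% below without overlap), list members that passed, up to 4 members per list by smallest p, genes past the threshold in both fissure against temporal and nasal against temporal, regional identity genes, and 6 genes each way in no list. Aldh1a2, Cdc25b, F11r and the pigment cell genes given only as not passing were named after their values were seen. The mesenchyme genes given only as not passing and the marker genes given only as dim were also outside the naming rule. The alternatives covered the filter, scaling, pseudocount, probe set summary, variance model, array weights, block, covariates, arrays in the fit and each array left out.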

Additional observations from a re-analysis of the deposited data

Results flagged for a closer look

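For 4 genes that passed in fissure against temporal, the change against temporal differed from the change against nasal, tested as nasal minus temporal with limma over 3 arrays a region. Cyp1b1 was higher in nasal than in temporal cup by 2.73 ± 0.16 (SE; adjusted p = 9.56e-06), and it was higher in the fissure than in either. Efna5 was higher in nasal than in temporal cup by 1.40 ± 0.17 (adjusted p = 0.0111). The Efna5 difference did not pass without nasal A, nasal B or any 1 temporal array, without the 3 arrays of letter B (adjusted p = 0.169) or with its probe sets averaged (adjusted p = 0.0822). Foxd1 differed by -5.43 ± 0.29 (adjusted p = 7.72e-06) and Epha5 by -2.07 ± 0.23 (adjusted p = 0.00769), both lower in nasal. The Epha5 difference did not pass without temporal A (adjusted p = 0.0597) or temporal B (adjusted p = 0.0651). These 4 were the genes with a passing change in both comparisons among 12773 tested, and with the letter as a block in nasal against temporal there were 13, the 4 among them.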

How the results depend on the processing

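The 685 calls of fissure against temporal (443 higher, 242 lower, 393 at least 2-fold) were recomputed in 25 settings. Array weights gave 3133 (2009 higher, 1124 lower). The letter as a replicate block gave 1541 (983 and 558), and 1303 (875 and 428) with only the 6 arrays of the comparison. The poly-A spike covariate gave 258 (166 and 92). Leaving out 1 array each gave 372 to 1161 calls, 236 to 798 higher and 136 to 363 lower. The 2-fold count was 182 with a pseudocount of 64, 255 with the mean of probe sets, 255 with the spike covariate and 609 when every probe set was tested by itself, which tests 28910 probe sets. The 6 calls of nasal against temporal became 16 for every probe set, 10 with array weights, 17 with the block, 3 without the 3 arrays of letter B and 10 with the Gapdh covariate, and 2 to 8 without 1 array. The cause of these moves was not tested. The other settings kept the counts within 1.5 times, and no call changed sign in any gene-level setting. The block changed the call of no gene called without it, and beyond the values in the report its gain was in genes that had not passed. In simulated data without letter effects, with 3 arrays a region, changes of 1 or less on the log2 scale were recovered in part only. Dim genes have imprecise changes.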

Other observations

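Of 4793 tested probe sets with no gene in the platform table, 123 passed in fissure against temporal when each probe set was tested by itself, 70 higher and 53 lower in the fissure. Of all 28910 probe sets tested this way 923 passed (3.19%). They are not analysed further here because no gene is paired with them in the table used.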
